A study of Mus with 3 samples.

Results

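Alveolar fibroblasts of the mouse lung were described in 3 single-cell RNA libraries of whole lung. They were chosen from unique molecule counts (UMIs) by the rule that follows. A kept cell held at least 3 UMIs of the collagen genes Col1a1, Col1a2 and Col3a1 together, and 0 UMIs of Ptprc (leukocytes), Epcam (epithelium), Cdh5 (endothelium) and Msln (mesothelium). Sftpc, the surfactant gene of alveolar type 2 cells, had to hold less than 2% of its UMIs. The summed UMIs of Npnt, Inmt and Ces1d had to exceed those of Col14a1, Pi16 and Serpinf1, genes of adventitial fibroblasts. The rule took 461 of 14441 kept cells, 144 in WT PBS, 209 in WT OVA and 108 in DJ-1 KO OVA. The cells with the reverse inequality, 127, 163 and 106 in the same order, served as adventitial fibroblasts for comparison.

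The mice were females 6 to 12 weeks old. WT PBS came from wild-type mice challenged with PBS, and WT OVA from wild-type mice challenged with ovalbumin (OVA), a protein used to model allergic airway inflammation. DJ-1 KO OVA came from ovalbumin-challenged DJ-1 knockout mice, which lack the protein encoded by Park7. Each group was a single library of cells pooled from 3 mice, so single mice cannot be separated, replicates are lacking and no p-value is given. No library of DJ-1 KO mice without ovalbumin was analysed here, and the labels do not describe the knockout allele. For WT PBS the treatment label and library name give PBS while the title also mentions ovalbumin, and the former were followed. Levels are in CPM, counts per 1e+06 UMIs of the class. Each value in brackets is a 95% interval (exact Poisson for levels, exact conditional binomial for ratios, Clopper-Pearson for shares) that covers counting error only.

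Alveolar fibroblasts lie in the walls between air spaces, next to alveolar type 2 cells and capillaries. They make collagen and elastin and secrete growth factors such as FGF7, FGF10 and WNT2 that support the alveolar epithelium, and many store lipid. In allergic inflammation, lung fibroblasts respond to IL-4 and IL-13 and release the eosinophil chemokine eotaxin-1, the product of Ccl11. DJ-1 is a small protein that is sensitive to oxidants and protects cells against oxidative stress.

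The libraries held 4556, 6406 and 4666 barcodes and 26548669, 24438516 and 17339386 UMIs in WT PBS, WT OVA, then DJ-1 KO OVA. WT PBS and DJ-1 KO OVA shared 372 barcodes, against 6 and 5 for the other pairs, and the smaller cell of each such pair was left out. Of the alveolar fibroblasts, 1 in WT PBS and 13 in DJ-1 KO OVA were the larger cell of such a pair. The fibroblasts were sampled to unequal depth, with medians of 8591.5, 4913 and 3693.5 UMIs and 2902.5, 2056 and 1721 genes per cell. Their summed UMIs were 1275571, 1088705 and 526825. B cells, 643, 929 and 295 in number, had medians of 3076, 1347 and 1153 UMIs, and their levels are given below for comparison. They were chosen to hold 0 collagen UMIs, which also removes B cells that carry free fibroblast RNA, so for fibroblast genes their levels are no full measure of the background. With B cells of any collagen count, 26, 35 and 19 more cells, Pdgfra stood at 3.44, 15.7 and 43.9 CPM in them and Serpinh1 at 8.4, 39 and 96.2 CPM. Of these added cells 3, 11 and 3 held 3 or more collagen UMIs, and whether they are doublets was not tested.

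Markers outside the rule mostly matched the label. Pdgfra, a receptor of lung fibroblasts, stood at 631 CPM in WT PBS (588 to 676), 891 in WT OVA (836 to 949) and 833 in DJ-1 KO OVA (757 to 915). It was found in 134, 179 and 89 of the cells, and B cells held 0.403, 1.17 and 1.98 CPM. Adventitial fibroblasts also expressed it, at 453, 556 and 529.9 CPM, and 96 of 127, 122 of 163 and 86 of 106 of them held a UMI of it. All 12 further alveolar fibroblast genes (Tcf21, Wnt2, Fgf10, Col13a1, Itga8, Limch1, Slc7a10, Scube2, Mfap4, Enpep, Cxcl14 and Macf1) were higher than in adventitial fibroblasts in each of the 3 libraries. Of 10 adventitial genes that the rule did not use, 9 were lower than in adventitial fibroblasts in every library. The exception was Pcolce2, an enhancer of procollagen processing, at 2038, 1292 and 746 CPM against 1273, 1008 and 577 in adventitial fibroblasts. In the sum of the 10 genes the separation is one of degree, at 31545, 30749 and 30092 CPM in alveolar and 40573, 40618 and 38187 CPM in adventitial fibroblasts. Most of the alveolar sum was Gsn alone. It stood at 22780, 22972 and 24198 CPM in alveolar fibroblasts with Npnt and at 29897, 31338 and 23984 CPM in those without. The sums therefore say little about the other genes of the list. Cldn5 (endothelium) and Upk3b, Wt1 and Lrrn4 (mesothelium) were at 0 in all 3 libraries, but their lists were not. Mesothelial genes without Msln summed to 22, 39.5 and 28.5 CPM, above the 1.21, 4.11 and 15.8 CPM of B cells. In WT PBS and DJ-1 KO OVA only Upk1b among them was above 0. Endothelial genes without Cdh5 summed to 50.2, 29.4 and 34.2 CPM, against 192, 101 and 123 in adventitial fibroblasts. Pericyte genes summed to 124, 139 and 116 CPM, against 269, 284 and 217. Airway secretory genes summed to 281, 580 and 691 CPM, below the 561, 1484 and 1595 CPM of B cells, and alveolar type 2 genes to 61.9, 98.3 and 53.1 CPM against 512, 1053 and 402 in B cells. Leukocyte genes without Ptprc summed to 65.9, 141 and 24.7 CPM.

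The 3 genes of the alveolar sum contributed unequally. Npnt encodes nephronectin, a matrix ligand of the integrin that contains the Itga8 subunit, and lies on chromosome 3 (132881745 to 132950291, GRCm38.p6 as for all positions given). Inmt encodes an indolethylamine N-methyltransferase (chromosome 6, 55170627 to 55174990), and Ces1d a carboxylesterase that cleaves lipid esters (chromosome 8, 93166072 to 93197804). Inmt gave 82.4%, 74.4% and 64.5% of the UMIs of the sum and was found in 141, 201 and 100 cells, Npnt in 121, 165 and 97 cells and Ces1d in 36, 31 and 24 cells. Inmt stood at 4817 CPM in WT PBS (4698 to 4939), 3542 in WT OVA (3431 to 3655) and 2232 in DJ-1 KO OVA (2106 to 2364). Npnt stood at 957 CPM in WT PBS (904 to 1012), 1163 in WT OVA (1099.7 to 1229) and 1143 in DJ-1 KO OVA (1053 to 1238). These levels chose the cells, so they are given as a description. Inmt was lowest and Npnt not lowest in the knockout library.

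Cells close to the limit were shallow. The sums differed by 1 UMI in 8, 18 and 8 of the alveolar fibroblasts, with medians of 2929.5, 2557.5 and 1842 UMIs per cell. Just outside, 3, 21 and 5 cells fell short by 1 UMI, with medians of 2065, 1701 and 1979 UMIs, and 8, 23 and 7 cells were tied and belong to neither class. The adventitial sum was 0 in 42, 77 and 55 alveolar fibroblasts and at least 1 in the other 102, 132 and 53.

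**Figure D1:**
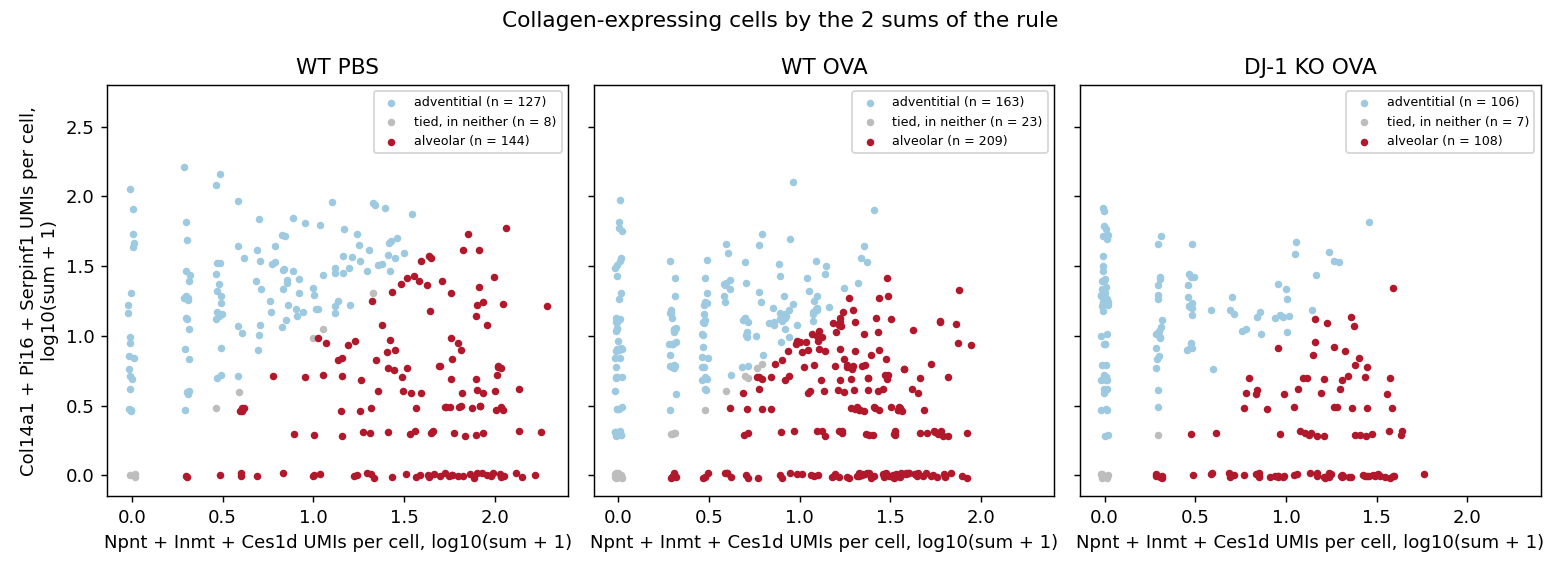
Summed UMIs of Npnt, Inmt and Ces1d (horizontal) and of Col14a1, Pi16 and Serpinf1 (vertical) in every collagen-expressing cell, as log10(sum + 1) with a small random shift so that points do not overlap. Red points are the 144, 209 and 108 alveolar fibroblasts. Their median alveolar sum was 43 UMIs in WT PBS, 20 in WT OVA and 15 in DJ-1 KO OVA.

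Among the alveolar fibroblasts, 121 of 144, 165 of 209 and 97 of 108 cells held Npnt. Since Npnt belongs to the rule, cells without it passed by Inmt and Ces1d alone, and this split is a description and no test. Limch1, an actin-associated gene of alveolar fibroblasts, stood at 2031, 1674 and 1315 CPM in the cells with Npnt and at 478, 649 and 581 CPM in those without. Itga8, the integrin subunit that binds nephronectin, stood at 402, 615 and 511 CPM with Npnt and 102, 192 and 158 CPM without. Of the 12 further alveolar fibroblast genes, 12 in WT PBS, 12 in WT OVA and 11 in DJ-1 KO OVA were higher in cells with Npnt, and the interval of the ratio lay above 1 for 10, 9 and 4 of them. Cxcl14 went the other way in the knockout library, at 863 CPM with Npnt against 1083 without, after 1367 against 447 and 1050 against 294 in the wild-type libraries. Tcf21 differed little in the challenged libraries, at ratios of 1.09 in wild type and 1.02 in the knockout, as did Fgf10 in the knockout library, at 1.1. All 55, 27 and 18 UMIs of Wnt2 lay in cells with Npnt. Pdgfra differed less, at 632, 932 and 849 CPM with Npnt against 627, 677 and 634 CPM without. The adventitial genes were mixed. Ly6a was lower in cells with Npnt, at 134, 87.8 and 24.5 CPM against 807, 339 and 79.2 without, the last on 3 UMIs. Pcolce2 was higher with Npnt, at 2096, 1311 and 775 CPM against 1513, 1197 and 370. Cells with Npnt were also deeper, at medians of 9455, 5263 and 3874 UMIs against 5814, 3670.5 and 2726.

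Alveolar fibroblasts made up 3.68% (3.12 to 4.32) of kept cells in WT PBS, 3.43% (2.99 to 3.92) in WT OVA and 2.43% (2.0 to 2.93) in DJ-1 KO OVA. They were 51.6%, 52.9% and 48.9% of the collagen-expressing cells. The knockout share lay below the wild-type intervals. After every kept cell was thinned to 1000 UMIs, the shares were 3.53% (2.96 to 4.16), 3.11% (2.67 to 3.59) and 2.8% (2.27 to 3.40), and these intervals overlap. Thinning left out 135, 395 and 972 kept cells as too shallow.

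Next to adventitial fibroblasts of the same libraries, alveolar fibroblasts held more RNA of Cdo1, Adarb1 and Col13a1 and less of Ackr3, Gxylt2 and Lum in all 3 libraries. These differences follow from how the classes were chosen and are described without a test. Of 3536 genes with at least 50 UMIs over both classes in each library, 92 (2.6%) were at least 2-fold higher in alveolar fibroblasts in all 3 libraries and 64 (1.81%) at least 2-fold lower. Cdo1, which oxidises cysteine, stood at 239.9, 215 and 216 CPM in WT PBS, WT OVA, then DJ-1 KO OVA against 20, 20 and 22.9 CPM in adventitial fibroblasts. Col13a1, a transmembrane collagen, stood at 249, 215 and 237 CPM against 20, 38.5 and 21.1. Adarb1, which encodes an adenosine deaminase that acts on RNA, stood at 291, 296 and 285 CPM against 24.4, 48.5 and 51.1. The amino acid transporter genes Slc38a5 and Slc36a2, the calcium channel gene Cacna1d, the calcium sensor gene Ncald, Itga8 and the chemokine gene Cxcl14 were also among the 10 highest. Their CPM in the 3 alveolar classes exceeded the adventitial values in every library. The 10 lowest were Ackr3, Gxylt2, Lum, Cd248, Fbln2, Smoc2, Igfbp5, Cd9, Cilp and Axl. Ackr3, a scavenging receptor for CXCL12, stood at 30.6, 26.6 and 11.4 CPM against 464, 403 and 234 in adventitial fibroblasts. Lum, which encodes the proteoglycan lumican, stood at 25.1, 54.2 and 49.4 CPM against 375, 441 and 516.

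The knocked-out gene was examined first across groups. Park7 lies on chromosome 4 (150897133 to 150909921). Its level in alveolar fibroblasts was 116 CPM in WT PBS (98.1 to 136), 89.1 in WT OVA (72.3 to 109) and 15.2 in DJ-1 KO OVA (6.56 to 29.9). The knockout level rested on 8 UMIs in 6 cells and was 0.17 (0.0716 to 0.349) of the WT OVA level. B cells held 112, 83.3 and 13.9 CPM in the same order. Whether the counted 3′ end lies outside the deleted part was not tested.

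Some genes of fibroblast identity and of the alveolar niche had overlapping intervals in the 3 libraries, but not all did. The WT PBS interval of Pdgfra, given above, lay below the intervals of the challenged libraries. Limch1 stood at 2031, 1674 and 1315 CPM in the cells with Npnt, which are a part of the class. In the cells without Npnt it stood at 478, 649 and 581 CPM. Of 11 further alveolar fibroblast genes counted in WT OVA over WT PBS, 0 were past 2-fold, beside 2.57% of all genes. A ratio above 1 was seen for 2 of them. Their median log2 ratio was -0.15. In DJ-1 KO OVA over WT OVA 0 of 10 were past 2-fold, beside 3.62% of all genes, and 5 had a ratio above 1, with a median of 0.03. With so few of all genes past 2-fold, these counts do not show that the listed genes were stable. Tcf21, a transcription factor of lung fibroblasts, stood at 189 CPM in WT PBS (166 to 214), 182 in WT OVA (157 to 209) and 161 in DJ-1 KO OVA (129 to 199.5). Fgf10, the growth factor that drives lung branching and supports epithelial progenitors, stood at 134 CPM in WT PBS (115 to 156), 130.4 in WT OVA (109.9 to 154) and 144 in DJ-1 KO OVA (114 to 181). Fgf7, a growth factor for type 2 cells, stood at 104 CPM in WT PBS (87.3 to 124), 129 in WT OVA (108 to 152) and 121 in DJ-1 KO OVA (93.6 to 155). Col13a1 likewise had overlapping intervals, at 249 CPM in WT PBS (223 to 278), 215 in WT OVA (188 to 244) and 237 in DJ-1 KO OVA (198 to 283). Wnt2 was sparse, with 55, 27 and 18 UMIs in all.

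Challenge of wild-type mice with ovalbumin was read from WT OVA over WT PBS. In alveolar fibroblasts of WT OVA, the hyaluronan synthase gene Has1, the cytokine gene Il6 and the metallothionein gene Mt2 were each more than 2-fold higher, while genes of cholesterol synthesis were lower. Of 5957 genes with at least 50 UMIs over both libraries, 83 were at least 2-fold higher (1.39%) and 70 at least 2-fold lower (1.18%), together 2.57%. The median log2 ratio over all of them was 0.00. The median depth of a cell was lower in WT OVA, at 4913 against 8591.5 UMIs, and the part of depth in these ratios was not tested beyond the thinning given with the alternative settings.

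Inflammatory genes were among the higher ones. Of 24 counted genes of inflammation and NF-kB, 5 were at least 2-fold higher, namely Cd44, Has1, Il6, Lcn2 and Tnfaip2, and 0 lower. Of all genes 1.39% were higher and 1.18% lower. The median log2 ratio of the list was 0.40. Il6, the cytokine of the acute phase response, stood at 269.7 CPM in WT PBS (242 to 299.7), 740.3 in WT OVA (690.1 to 793) and 947 in DJ-1 KO OVA (866 to 1034). It was found in 53, 79 and 42 cells, and WT OVA was 2.75 (2.42 to 3.12) times WT PBS. Has1, which makes the matrix polysaccharide hyaluronan, stood at 35.3 CPM in WT PBS (25.7 to 47.2), 161 in WT OVA (138 to 186) and 218 in DJ-1 KO OVA (180.2 to 262). The ratio of WT OVA to WT PBS was 4.56 (3.27 to 6.47) for Has1, and UMIs were found in 44 of 209 cells against 15 of 144. Tnfaip2, a gene induced by TNF, stood at 260.3 CPM in WT PBS (233 to 289.8), 542 in WT OVA (499 to 587) and 562 in DJ-1 KO OVA (499.7 to 629.6), a ratio of 2.08 (1.82 to 2.39) in WT OVA over WT PBS. Cd44, the hyaluronan receptor, stood at 107, 215 and 334 CPM, 2.02 times WT PBS in WT OVA, beside 193, 220 and 319 CPM in B cells. Lcn2, at 8.62, 52.4 and 91.1 CPM, stood beside 50.7, 27 and 39.6 CPM in B cells.

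Il6 and Has1 were also higher in adventitial fibroblasts of WT OVA, at 2.04 (1.74 to 2.41) times WT PBS for Il6 and 1.75 (1.43 to 2.14) for Has1. The difference between the classes was not tested.

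Most chemokine and IL-13-responsive genes had a ratio above 1. For chemokines 7 of 10 counted genes did, with a median log2 ratio of 0.45. For IL-13-responsive genes 6 of 7 did, with a median of 0.95, against 0.00 over all genes. The medians of these lists in adventitial fibroblasts were 0.43 and 0.94. Of 10 chemokine genes counted, only Ccl19, which attracts lymphocytes and dendritic cells, was past 2-fold, at 23.5 CPM in WT PBS (15.9 to 33.6), 63.4 in WT OVA (49.3 to 80.2) and 15.2 in DJ-1 KO OVA (6.56 to 29.9). Its ratio was 2.69 (1.73 to 4.29). Ccl11 (chromosome 11, 82057832 to 82062955) stood at 42.3 CPM in WT PBS (31.8 to 55.2), 81.7 in WT OVA (65.7 to 101) and 321 in DJ-1 KO OVA (274 to 373). The WT OVA level was 1.93 (1.36 to 2.76) times that of WT PBS, below the 2-fold limit, and 15 and 20 cells held it. Its log2 ratio of 0.95 was 1.79 in members with Npnt only, 0.40 in those whose sums differed by at least 2 UMIs and 0.11 after thinning. Cxcl1, a neutrophil chemokine, stood at 717, 815 and 1293 CPM and Ccl2, a monocyte chemokine, at 176, 138 and 89.2 CPM. Of 7 IL-13-responsive genes counted, Chil3, Ereg and Retnla were at least 2-fold higher, beside 1.39% of all genes. Retnla had 0, 89 and 80 UMIs, or 0, 81.7 and 152 CPM, against 1.61, 85.1 and 291 CPM in B cells, and Chil3 3.14, 45.9 and 146 CPM against 188, 1493 and 2391, so both lie at or below the B cell level in WT OVA. For Ereg, which encodes the growth factor epiregulin, 35 of 44 UMIs of WT OVA came from 1 cell. Of 13 counted genes of type 2 cytokine receptors and their signalling, 0 were past 2-fold. Il13ra1, too sparse to be counted, had 9, 22 and 23 UMIs, and Il4ra stood at 69.8, 116 and 104 CPM against 129, 203 and 176 in B cells.

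Cholesterol synthesis genes had the lowest median of the 20 lists. All 13 counted genes had a ratio below 1, 5 of them at most 0.5 (Fdps, Hsd17b7, Idi1 and Msmo1 among them), beside 1.18% of all genes. The median log2 ratio was -0.88. In adventitial fibroblasts the median over the same list was -0.39. Idi1, which makes dimethylallyl pyrophosphate, stood at 77.6 CPM in WT PBS (63.1 to 94.5), 37.7 in WT OVA (27 to 51.1) and 131 in DJ-1 KO OVA (102 to 166), with a ratio of 0.485 (0.329 to 0.705). Msmo1, which removes methyl groups from sterols, stood at 83.9 CPM in WT PBS (68.7 to 101), 36.7 in WT OVA (26.2 to 50) and 96.8 in DJ-1 KO OVA (72.1 to 127), with a ratio of 0.438 (0.297 to 0.635). Hmgcs1, which makes the precursor of mevalonate, stood at 116 CPM in WT PBS (98.1 to 136), 58.8 in WT OVA (45.3 to 75.1) and 148 in DJ-1 KO OVA (117 to 185), just inside the 2-fold limit at 0.507 (0.372 to 0.684). For each of these 3 genes WT OVA was the lowest of the 3 libraries. Ch25h, which makes 25-hydroxycholesterol, had another order, at 36.8 CPM in WT PBS (27.1 to 49), 99.2 in WT OVA (81.4 to 119.8) and 319 in DJ-1 KO OVA (272 to 371), and was 2.69 (1.89 to 3.88) times WT PBS in WT OVA.

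The remaining lists stood near the median of all genes, and their counts stand beside 1.39% of all genes higher and 1.18% lower. Of 52 matrix genes 2 were higher, Ltbp2 and Lum, and the median log2 ratio was 0.03. Ltbp2, a microfibril protein of the latent TGF-beta binding family, stood at 38.4 CPM in WT PBS (28.4 to 50.8), 101 in WT OVA (83 to 122) and 28.5 in DJ-1 KO OVA (15.9 to 47), with a ratio of 2.63 (1.86 to 3.76). Collagens were not counted as far as they served the rule, and Col1a1 stood at 2564, 2145 and 2665 CPM. None of 29 niche growth factor genes, 27 TGF-beta pathway genes, 27 immediate early genes and 33 nuclear respiratory chain genes was past 2-fold, with medians of 0.13, 0.18, 0.12 and -0.14. Of 34 antioxidant genes Hmox1 and Mt2 were higher and the median was -0.02. Mt2, a zinc-binding metallothionein, stood at 192 CPM in WT PBS (169 to 218), 536 in WT OVA (494 to 582) and 859.9 in DJ-1 KO OVA (782 to 943), a ratio of 2.79 (2.4 to 3.26). Of 14 heat shock genes Hspa1b and Hsph1 were higher, and of 27 interferon and antigen presentation genes Ifi35 and Isg15 were lower. For Isg15, 82.6% and 79.4% of the UMIs lay in 5 cells of WT PBS and WT OVA.

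Ranked by ratio among genes with at least 100 UMIs and above the B cell level, the 10 highest were Has1, Mt2, Il6, Ch25h, Ltbp2, Sowahc, Hspa1b, Fgl2, Odc1 and Tnfaip2, from 4.56 down to 2.08. Odc1, the first enzyme of polyamine synthesis, stood at 331 CPM in WT PBS (300 to 364), 695 in WT OVA (647 to 747) and 363 in DJ-1 KO OVA (313 to 418). Fgl2, a fibrinogen-like protein with immune functions, stood at 45.5 CPM in WT PBS (34.5 to 58.8), 102 in WT OVA (83.9 to 123) and 129 in DJ-1 KO OVA (100.2 to 164). Hspa1b, an inducible HSP70, stood at 137 CPM in WT PBS (118 to 159), 316 in WT OVA (283 to 351) and 103 in DJ-1 KO OVA (77 to 134). The 10 lowest were Prkg2, Isg15, Msmo1, Nrg2, Hsd17b4, Ech1, Nap1l5, Uaca, Dclre1a and Hist1h2bc, from 0.430 up to 0.483. Prkg2, a kinase activated by cyclic GMP, stood at 85.5 CPM in WT PBS (70.2 to 103), 36.7 in WT OVA (26.2 to 50) and 38 in DJ-1 KO OVA (23.2 to 58.6). Nrg2, a ligand of ERBB receptors, stood at 91.7, 40.4 and 24.7 CPM. Hsd17b4 and Ech1, enzymes of fatty acid oxidation, stood at 60.4, 26.6 and 53.1 CPM and 85.5, 38.6 and 28.5 CPM. After thinning to 1000 UMIs per cell, Msmo1, Ech1, Fgl2 and Lum came inside the 2-fold limit, at log2 ratios of -0.26, -0.40, 0.45 and 0.035, and Prkg2 and Uaca changed sign, at 0.035 and 1.04. With cells weighted alike, Ccl19, Ltbp2 and Hmox1 came inside it, at 0.83, 0.81 and 0.34.

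**Figure D2:**
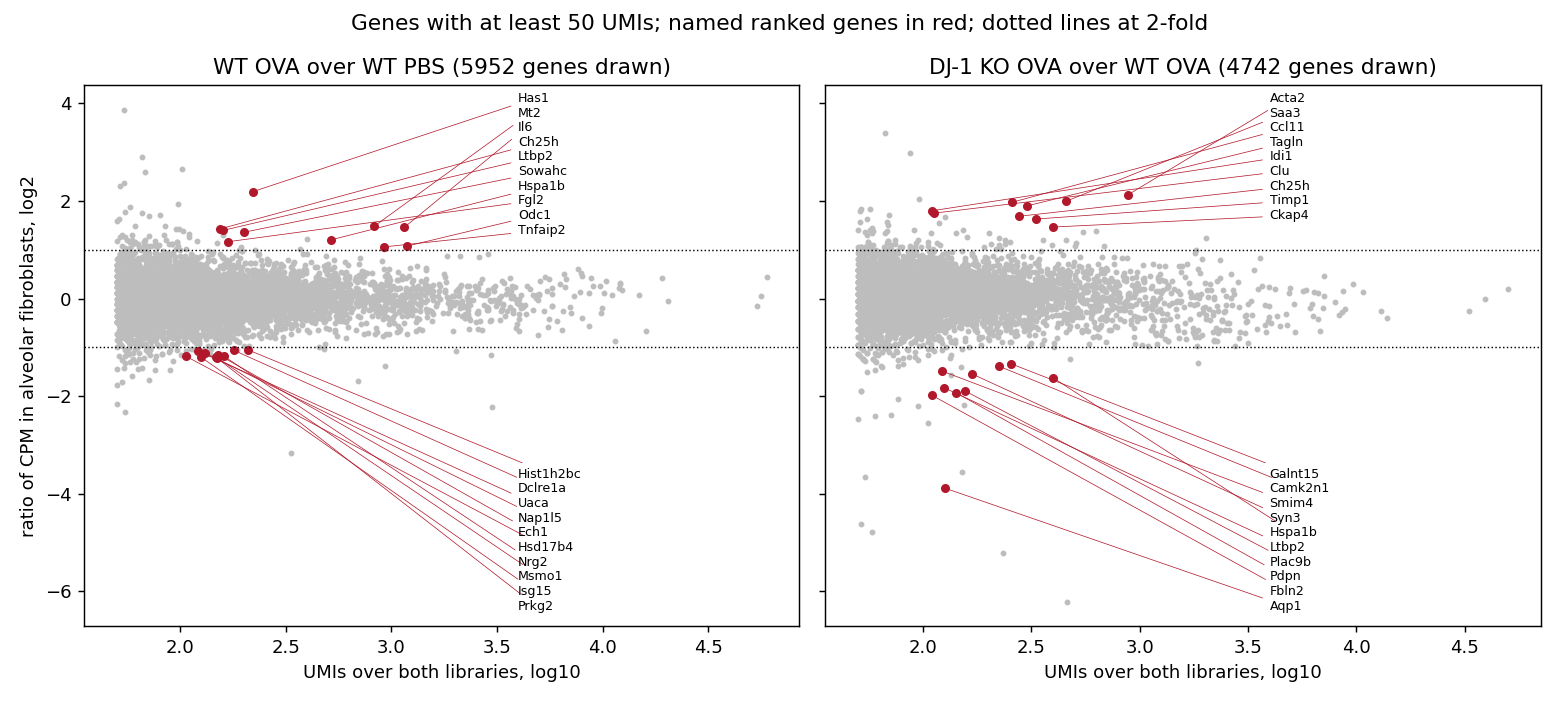
Log2 ratio of CPM against log10 of the UMIs over both libraries, 1 point per gene with at least 50 UMIs, in alveolar fibroblasts. Genes at 0 in a library and those not reported here are not drawn. Red points are the ranked genes of each comparison that the text names, with Has1 at the top on the left and Acta2 at the top and Aqp1 at the bottom on the right.

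Loss of DJ-1 under challenge was read from DJ-1 KO OVA against WT OVA. This comparison shares the WT OVA library with the previous one, so a value particular to that library enters both. In the knockout library alveolar fibroblasts held more RNA of Ccl11, Idi1, Pdia6 and Col6a2, and less of Apoe, Pdpn and Ly6a. Of 4745 genes counted, 90 were at least 2-fold higher (1.9%) and 82 at least 2-fold lower (1.73%), together 3.62%, with a median log2 ratio of 0.07. Scaling by the trimmed mean of M values moved that median to -0.04 and the split to 61 higher and 124 lower genes. Knockout cells were shallower, with a median of 3693.5 against 4913 UMIs, and their part in these ratios was not tested beyond thinning.

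Ccl11, which encodes the eosinophil chemokine eotaxin-1, was 3.92 (3.02 to 5.13) times as high in the knockout library, at the 321 CPM given above. Its UMIs numbered 54, 89 and 169 and lay in 15, 20 and 30 cells of WT PBS, WT OVA, then DJ-1 KO OVA, so most alveolar fibroblasts held none. The 5 highest cells held 72.2%, 67.4% and 53.3% of them. Ccl11 stood at 13.9, 48.3 and 299 CPM in the alveolar fibroblasts with Npnt and at 298, 254 and 608 CPM in those without. The cells without Npnt held 38, 45 and 23 of its UMIs. B cells held 0.403, 0.587 and 3.96 CPM, or 0.382, 3.25 and 94.6 CPM where B cells with collagen UMIs are included. In adventitial fibroblasts Ccl11 stood at 123 CPM in WT PBS (101 to 149), 234 in WT OVA (199 to 272) and 839.7 in DJ-1 KO OVA (766 to 919), above the alveolar level in each library, with a ratio of 3.59 (3.0 to 4.32). Without any cell of a shared barcode the log2 ratio in alveolar fibroblasts was 1.54, against 1.97, and over the other alternatives it ran from 1.45 to 2.67.

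Other secreted proteins of inflammation were also higher but rested on few cells. Of 7 IL-13-responsive genes counted, Ccl11, Chil3, Saa3 and Timp1 were at least 2-fold higher and Ereg lower, beside 1.9% of all genes higher and 1.73% lower. The median log2 ratio of the list was 1.63, or 0.98 without any cell of a shared barcode. Chil3, at 3.14, 45.9 and 146 CPM, stayed below its level in B cells. Saa3, an acute phase serum amyloid gene, stood at 165 CPM in WT PBS (143 to 188), 143 in WT OVA (122 to 168) and 569 in DJ-1 KO OVA (507 to 638). Its UMIs lay in 5, 11 and 18 cells, and the 5 highest held 100%, 93.6% and 82.3% of them. Its ratio was 3.97 (3.26 to 4.85), or 1.24 on the log2 scale without any cell of a shared barcode against 1.99 with them. Timp1, an inhibitor of metalloproteinases, stood at 103 CPM in WT PBS (86.6 to 123), 122 in WT OVA (102 to 145) and 378 in DJ-1 KO OVA (327 to 434), with 1 knockout cell holding 76 of 199 UMIs. Its log2 ratio was 1.21 without the highest cell of each library and 0.98 without cells of shared barcodes, against 1.63. Postn, the matrix protein periostin, had 9, 7 and 24 UMIs and was not counted. It stood at 7.06, 6.43 and 45.6 CPM against 54.4, 171 and 873 CPM in adventitial fibroblasts.

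Of 24 inflammation and NF-kB genes, Hp, Lif and Saa3 were higher and Pdpn lower, beside 1.9% of all genes higher and 1.73% lower. The median log2 ratio was 0.38. Lif, a cytokine of the IL-6 family, stood at 59.6 CPM in WT PBS (46.9 to 74.6), 92.8 in WT OVA (75.6 to 113) and 201 in DJ-1 KO OVA (165 to 243), with a ratio of 2.17 (1.64 to 2.88). Il6 and Has1 were not past 2-fold, at 1.28 (1.14 to 1.43) and 1.36 (1.06 to 1.73). Of 10 chemokine genes Ccl11 was higher and Ccl19 lower, and the median was 0.01. Ccl19 had 8 UMIs in the knockout library, a ratio of 0.24 (0.0995 to 0.499). Cxcl12, which retains lymphocytes and progenitors, stood at 437 CPM in WT PBS (401 to 474), 411 in WT OVA (373 to 450.5) and 725 in DJ-1 KO OVA (654 to 802), inside the 2-fold limit at 1.77 (1.54 to 2.03). Of 11 genes of type 2 cytokine receptors and signalling, 0 were past 2-fold.

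**Figure D3:**
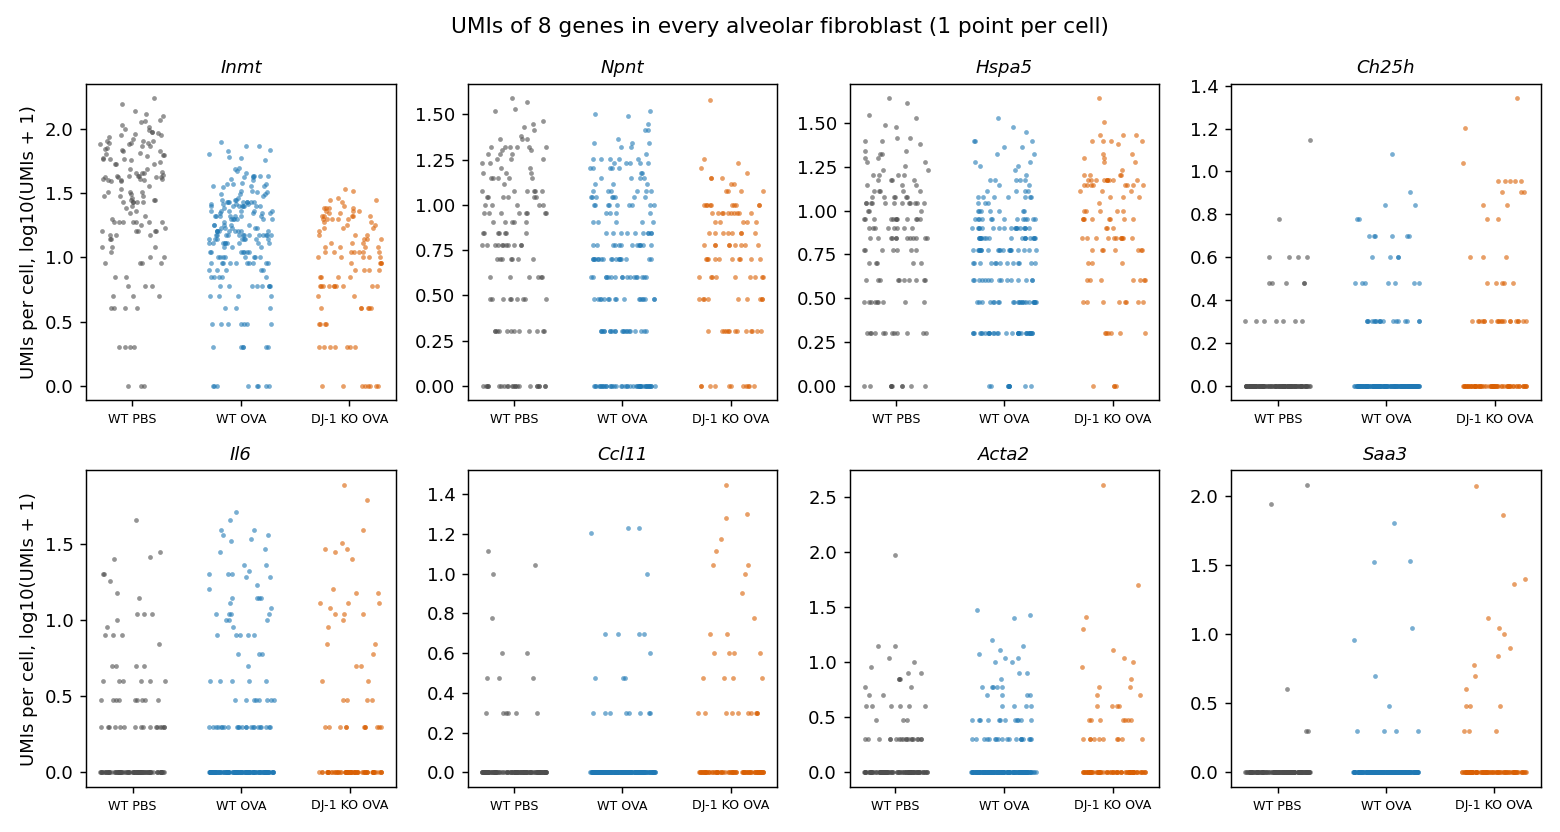
UMIs of 8 genes in each alveolar fibroblast, as log10(UMIs + 1), 1 point per cell and 1 column per library. Inmt, Npnt and Hspa5 were found in most cells, whereas Ccl11 was found in 15, 20 and 30 cells and Saa3 in 5, 11 and 18, and 1 knockout cell stands apart for Acta2 at 408 UMIs.

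Cholesterol synthesis genes were higher in the knockout library. Of 10 counted genes 9 had a ratio above 1, and 5 (Cyp51, Hmgcs1, Idi1 and Msmo1 among them) were at least 2-fold higher and 0 lower, beside 1.9% of all genes higher. The median log2 ratio was 0.87, against 0.07 over all genes and 1.14 for the list in adventitial fibroblasts. Idi1 was 3.48 (2.33 to 5.25) times, Hmgcs1 2.52 (1.79 to 3.56) times and Msmo1 2.63 (1.71 to 4.09) times WT OVA. Cyp51, a sterol demethylase, stood at 41.5 CPM in WT PBS (31.1 to 54.3), 40.4 in WT OVA (29.4 to 54.3) and 81.6 in DJ-1 KO OVA (59.1 to 109.9), and its log2 ratio of 1.01 became -0.12 after thinning. The knockout level of Idi1 also lay above the WT PBS interval, whereas the intervals of Hmgcs1 and Msmo1 overlapped those of WT PBS. Sqle, the squalene epoxidase gene, was too sparse to be counted, with 30, 8 and 29 UMIs. Insig1, which restrains sterol synthesis, stood at 140.3 CPM in WT PBS (121 to 162), 139.6 in WT OVA (118 to 164) and 137 in DJ-1 KO OVA (107 to 172). In B cells Idi1 stood at 11.3, 27 and 31.7 CPM. Ch25h was 3.21 (2.51 to 4.13) times WT OVA in alveolar and 1.23 (0.852 to 1.79) times in adventitial fibroblasts.

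Secretory chaperones, which fold proteins in the endoplasmic reticulum, were mostly inside the 2-fold limit. Of 29 counted genes 3 (Edem1, Pdia4 and Pdia6) were at least 2-fold higher, 0 lower and 26 between, beside 1.9% of all genes higher, and Edem1 stood at a log2 ratio of 0.28 after thinning. A ratio above 1 was seen for 25 of the 29, and the median log2 ratio was 0.60, against 0.07 over all genes. Scaled by the trimmed mean of M values these medians were 0.50 and -0.04. The adventitial median was 0.58. Hspa5, the main HSP70 of the endoplasmic reticulum, stood at 1021 CPM in WT PBS (966 to 1078), 1178 in WT OVA (1114 to 1244) and 2031 in DJ-1 KO OVA (1911 to 2156), with a ratio of 1.72 (1.59 to 1.87). Pdia6, a protein disulphide isomerase, stood at 299 CPM in WT PBS (269 to 330.2), 228 in WT OVA (200.3 to 258) and 499 in DJ-1 KO OVA (441 to 563), with a ratio of 2.19 (1.84 to 2.62). Serpinh1, the chaperone specific to collagen, stood at 938 CPM in WT PBS (886 to 993), 852 in WT OVA (798 to 909) and 1695 in DJ-1 KO OVA (1586 to 1810), just inside the limit at 1.99 (1.81 to 2.18). Ckap4, a membrane protein of the endoplasmic reticulum among the 10 highest ranked genes, stood at 158 CPM in WT PBS (137 to 181), 156 in WT OVA (134 to 181) and 431 in DJ-1 KO OVA (377 to 491). All 4 had their highest level in the knockout library, with intervals apart from both wild-type libraries. B cells differed between libraries in the same sense, at 404, 495 and 848 CPM for Hspa5 and 94.2, 148 and 254 CPM for Pdia6. Of Serpinh1 they held 0.805, 7.04 and 3.96 CPM. With B cells of any collagen count its levels, given above, were also highest in the knockout library. Ddit3 and Atf4, transcription factors of the stress response, had ratios of 0.768 (0.526 to 1.1) and 1.01 (0.842 to 1.22).

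**Figure D4:**
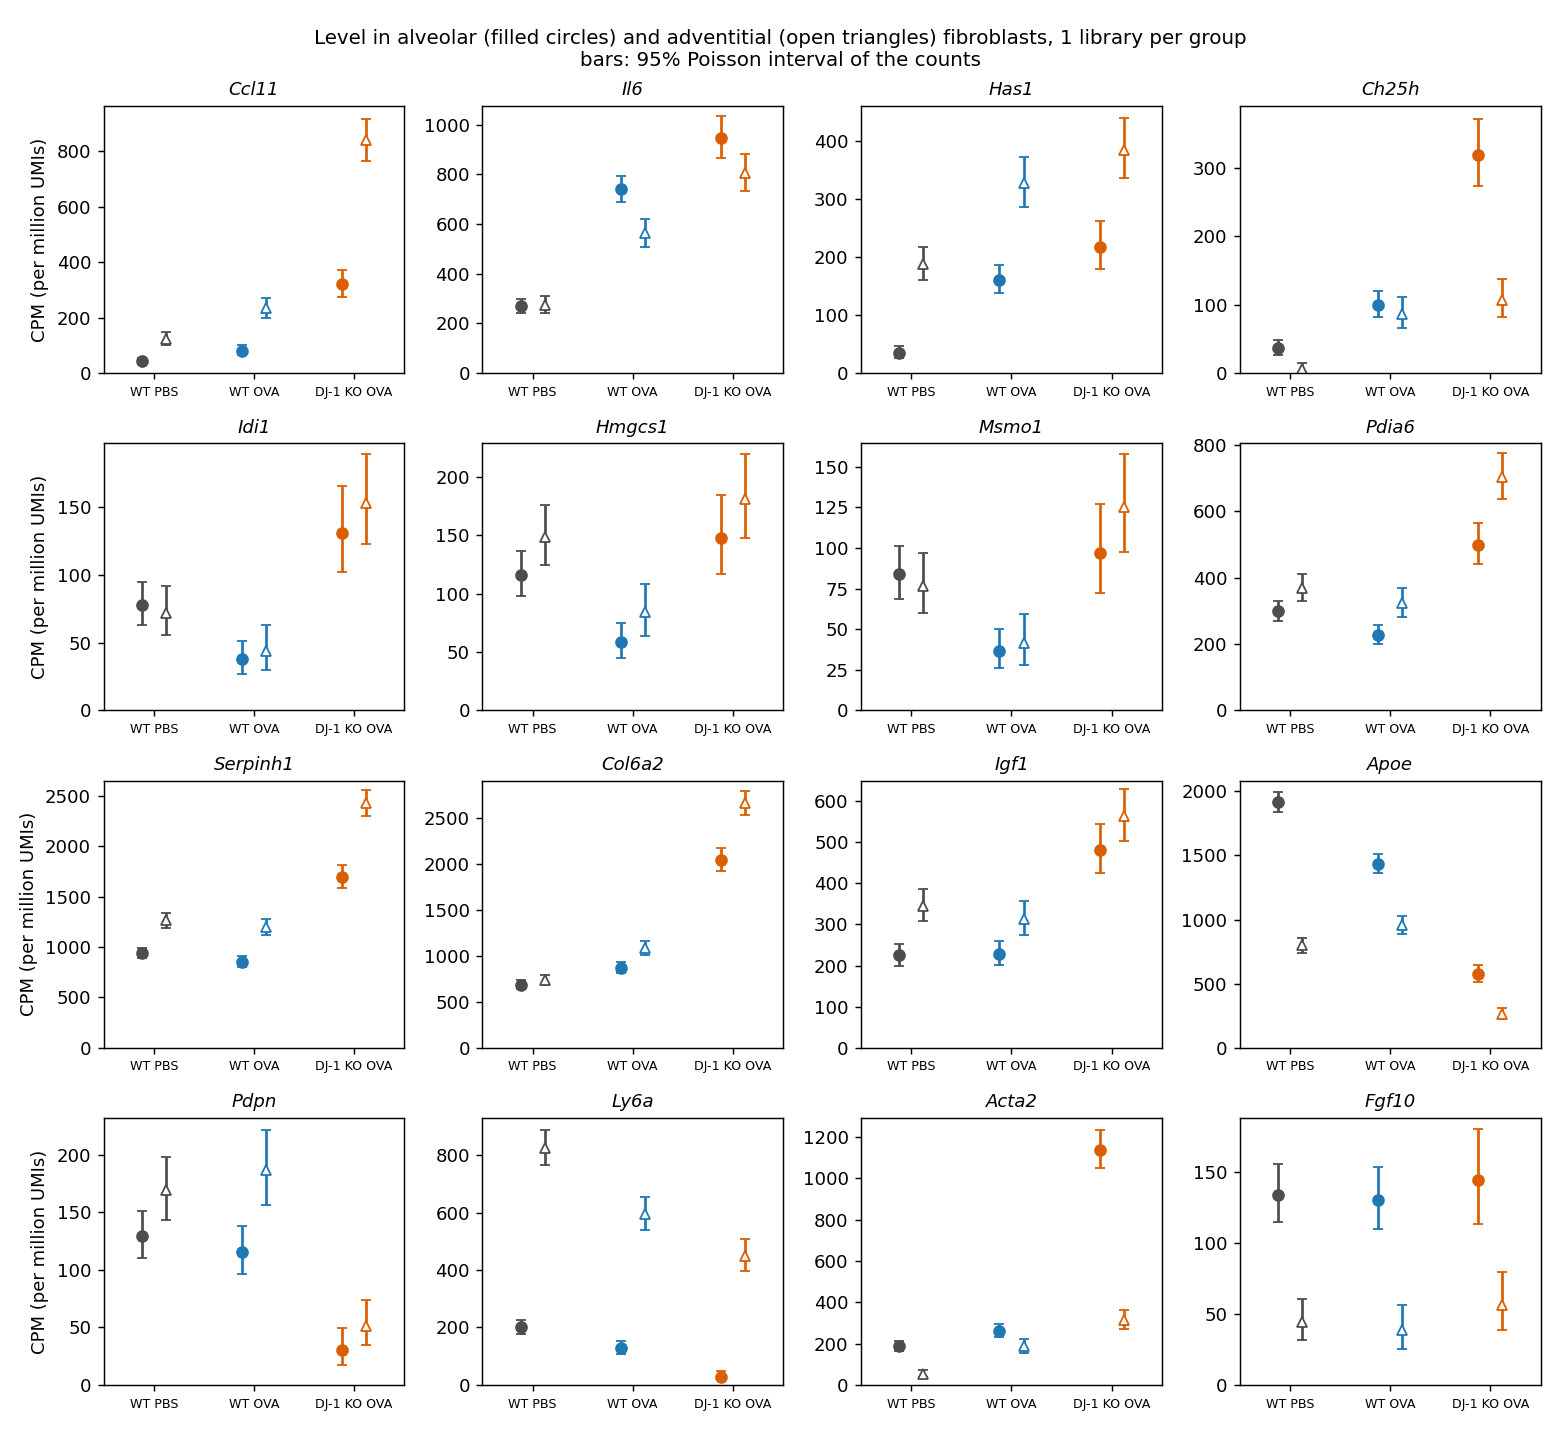
CPM of 16 genes in alveolar (filled circles) and adventitial (open triangles) fibroblasts of each library, with 95% Poisson intervals of the counts. In alveolar fibroblasts Idi1 is lowest in WT OVA and highest in DJ-1 KO OVA, Ccl11 and Col6a2 are highest in DJ-1 KO OVA in both classes, and Apoe and Pdpn lowest.

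Matrix genes were mostly inside the 2-fold limit, 45 of 51 counted. Col6a2 and Vcan were higher and Fbln2, Fmod, Ltbp2 and Tgfbi lower, beside 1.9% of all genes higher and 1.73% lower. The median log2 ratio was 0.17, against 0.07 over all genes. Col6a2 (chromosome 10, 76595756 to 76623630) encodes a chain of collagen VI, which forms beaded filaments around cells. Its level was 687 CPM in WT PBS (642 to 734), 869 in WT OVA (814 to 926) and 2044 in DJ-1 KO OVA (1924 to 2170.2), and its ratio was 2.35 (2.15 to 2.57), beside 2.45 (2.24 to 2.68) in adventitial fibroblasts. It was found in 131, 185 and 98 cells. Vcan, the proteoglycan versican, stood at 94.9 CPM in WT PBS (78.7 to 113), 96.4 in WT OVA (78.9 to 117) and 228 in DJ-1 KO OVA (189 to 272), with a ratio of 2.36 (1.8 to 3.1). Fn1, which encodes fibronectin, was inside the limit at 1.74 (1.59 to 1.91). Fbln2, a fibulin of elastic fibres, stood at 51.7 CPM in WT PBS (40 to 65.8), 90 in WT OVA (73.1 to 109.7) and 22.8 in DJ-1 KO OVA (11.8 to 39.8), with 12 UMIs in the knockout library and a log2 ratio of -1.98, or -0.99 after thinning. Ltbp2 was 0.282 (0.153 to 0.485) of WT OVA. The knockout values of Fbln2, Fmod, Ltbp2 and Tgfbi rested on 6 to 15 UMIs each. The rule's own collagen genes had ratios of 1.24, 1.26 and 1.17 for Col1a1, Col1a2 and Col3a1. Of 24 proteases and inhibitors, Adamts15, a metalloproteinase, and Timp1 were higher, and Adamts15 stood at 177 CPM in WT PBS (155 to 202), 177 in WT OVA (153 to 204) and 382 in DJ-1 KO OVA (331 to 438).

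Growth factors of the alveolar niche were mostly inside the limit. Of 26 counted, Igf1 and Sfrp1 were at least 2-fold higher and 0 lower, beside 1.9% of all genes higher and 1.73% lower. The median log2 ratio was 0.20. Igf1, insulin-like growth factor 1, stood at 225 CPM in WT PBS (199.7 to 253), 229 in WT OVA (201 to 259) and 482 in DJ-1 KO OVA (425 to 545), with a ratio of 2.11 (1.76 to 2.52). Sfrp1, a secreted WNT inhibitor, stood at 182 CPM in WT PBS (159 to 207), 198 in WT OVA (173 to 227) and 456 in DJ-1 KO OVA (399.7 to 517), with a ratio of 2.3 (1.9 to 2.77). Bmp4 and Wnt5a had ratios of 1.82 (1.44 to 2.31) and 1.74 (1.35 to 2.24). Of 26 TGF-beta pathway genes, Eng and Tgfbi were lower.

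Genes of smooth muscle were higher through very few cells. Of 7 counted genes of the myofibroblast and smooth muscle list, Acta2, Des, Myh11 and Tagln were at least 2-fold higher, beside 1.9% of all genes. The median log2 ratio was 1.84. The list summed to 524, 634 and 2010 CPM. Acta2, smooth muscle actin (chromosome 19, 34240336 to 34255585), stood at 187 CPM in WT PBS (164 to 213), 261 in WT OVA (231 to 293) and 1139 in DJ-1 KO OVA (1049.6 to 1234). In the knockout library 408 of its 600 UMIs came from 1 cell, which held 6 UMIs of Npnt and 0 of Inmt, Pdgfra and Tcf21. At least 1% of UMIs came from Acta2, Tagln, Myh11, Actg2, Cnn1 and Des in 1, 2 and 3 of the cells, and these carried 40.1%, 21.1% and 82.1% of the UMIs of those genes in their libraries. Without these cells the log2 ratio was 0.12 for Acta2, -0.03 for Tagln and -0.85 for Des, against 2.13, 1.90 and 1.84 with them. All of these cells held UMIs of Npnt and Itga8 and 0 of Inmt, Pdgfra and Tcf21. Over all genes, 89 were higher and 85 lower without them.

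Genes lower in the knockout library included Apoe, the apolipoprotein of lipid transport, which stood at 1918 CPM in WT PBS (1842 to 1995), 1437 in WT OVA (1366 to 1509.6) and 573 in DJ-1 KO OVA (510.4 to 642). Its ratio was 0.399 (0.352 to 0.452) in alveolar and 0.275 (0.228 to 0.328) in adventitial fibroblasts, and B cells held 222, 229 and 51.5 CPM. Of 13 lipid handling genes Apoe alone was past 2-fold, beside 1.9% of all genes higher and 1.73% lower. Plin2, a lipid droplet protein, stood at 57.2, 57.9 and 53.1 CPM. Pdpn, the membrane glycoprotein podoplanin, stood at 129 CPM in WT PBS (110.4 to 151), 116 in WT OVA (96.4 to 138) and 30.4 in DJ-1 KO OVA (17.4 to 49.3), with ratios of 0.262 (0.146 to 0.443) and 0.273 (0.176 to 0.411) in the 2 classes. Ly6a, the surface protein Sca-1, stood at 201 CPM in WT PBS (178 to 228), 129 in WT OVA (108 to 152) and 28.5 in DJ-1 KO OVA (15.9 to 47), with a ratio of 0.221 (0.121 to 0.378), and B cells held 139, 157 and 239.7 CPM. Aqp1, a water channel, had 73, 122 and 4 UMIs, a ratio of 0.0678 (0.0182 to 0.178). Its UMIs lay in 12, 20 and 1 cells, and it stood higher in adventitial fibroblasts, at 379.9, 242 and 151 CPM.

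The 10 lowest ranked genes were Aqp1, Fbln2, Pdpn, Plac9b, Ltbp2, Hspa1b, Syn3, Smim4, Camk2n1 and Galnt15, from 0.0678 up to 0.396. Among the 10 highest were Acta2, Saa3, Ccl11, Tagln, Idi1, Clu, Ch25h, Timp1 and Ckap4, from 4.37 down to 2.76. Hspa1b stood at 0.324 of WT OVA. Of 14 heat shock genes it alone was past 2-fold, beside 1.9% of all genes higher and 1.73% lower. Camk2n1, an inhibitor of CaM kinase II, stood at 194, 174 and 66.4 CPM, and Galnt15, a glycosyltransferase, at 159.9, 197 and 77.8 CPM.

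Genes of oxidative stress and energy metabolism were nearly all inside the 2-fold limit, beside 1.9% of all genes higher and 1.73% lower. Of 33 antioxidant genes, the list nearest to the known role of DJ-1, Gsta3 was lower and 0 higher, with a median log2 ratio of -0.18. Gsta3, a glutathione transferase, stood at 138 CPM in WT PBS (118 to 159.9), 102 in WT OVA (83.9 to 123) and 45.6 in DJ-1 KO OVA (29.2 to 67.8), with a ratio of 0.447 (0.275 to 0.699). Sod1 and Txnrd1, encoding superoxide dismutase and thioredoxin reductase, had ratios of 0.865 (0.694 to 1.07) and 1.31 (0.908 to 1.88). Of 26 immediate early genes 0 were past 2-fold and 7 had a ratio above 1, with a median of -0.30. Fos and Jun stood at 4147, 4518 and 3362 CPM and 3131, 2763 and 1951 CPM. None of 33 nuclear respiratory chain genes, 9 glycolysis genes, 9 retinoid genes and 4 cell cycle genes was past 2-fold, with medians of -0.04, 0.12, -0.18 and 0.52, against 0.07 over all genes. Of 12 complement genes Cd59a was higher, at 67.4, 46.8 and 104 CPM, and of 21 interferon and antigen presentation genes Ly6a was lower.

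**Figure D5:**
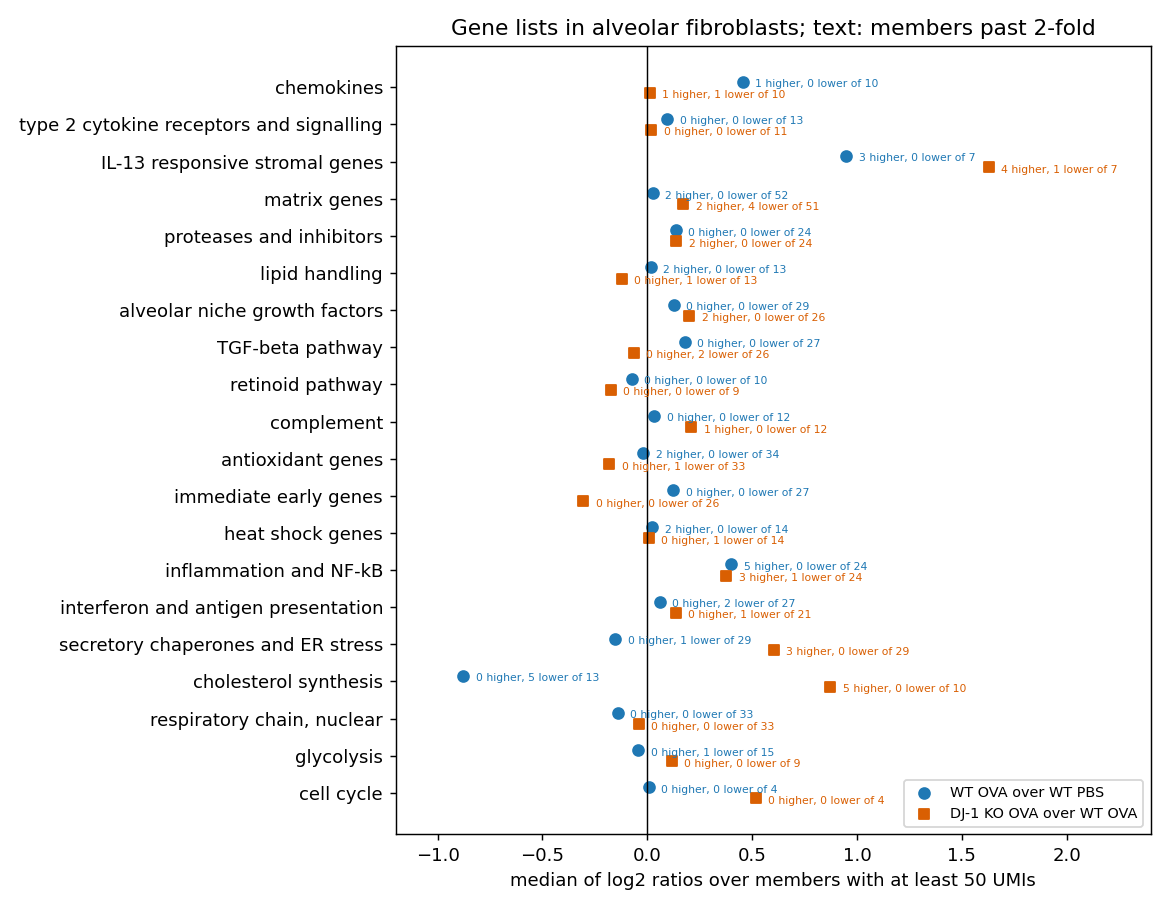
Median log2 ratio of each of 20 gene lists in alveolar fibroblasts, circles for WT OVA over WT PBS and squares for the knockout comparison, with the number of members past 2-fold. Cholesterol synthesis has the lowest circle, at -0.88 with 5 of 13 lower, and its square stands at 0.87 with 5 of 10 higher.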

How the data were processed

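Whole-lung cells of 3 groups were measured with the Chromium Single Cell 3′ v3 kit, per the labels' protocols. The authors deposited unnormalized UMI counts for each gene and barcode. Per the file headers they come from software version 3.1.0, and Cell Ranger, STAR and mm10 are named in the submitters' processing notes, while the annotation release is not given in the sources used here.

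Of 27998 genes, counts were used as deposited. Kept cells had 200 or more genes and no more than 20% mitochondrial UMIs, except the smaller cell of a barcode found in both WT PBS and DJ-1 KO OVA. UMIs were summed over the alveolar fibroblasts of each library and scaled to CPM. A gene was called past 2-fold at a ratio of at least 2 or at most 0.5 with at least 50 UMIs over both libraries, and genes of the cell rule were not counted. WT OVA over WT PBS and DJ-1 KO OVA over WT OVA were compared, and with 1 library per group there was no test. B cells held at least 3 UMIs of Cd79a, Cd79b and Ms4a1 and 0 of the collagen genes, Epcam and Cdh5. Doublets were handled by the 0-UMI conditions of the rule. Scrublet in scanpy 1.11.5, run as an alternative, called 57 of 4214, 162 of 6092 and 3 of 4506 barcodes, of which 0, 2 and 0 were alveolar fibroblasts, and did not work in DJ-1 KO OVA.

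The text names Park7, genes of the rule, members of 20 function lists and 10 marker lists (598 of 599 genes found), and per comparison the 10 highest and 10 lowest ratios among genes with at least 100 UMIs and at least 2 times the B cell CPM. Mitochondrial, ribosomal, haemoglobin, immunoglobulin and unnamed genes were not ranked, and a few genes that these rules select are not reported here. The cells, genes and lists were chosen with earlier results of these data known. Intervals were tried on simulated Poisson counts, the model they assume, so this does not test them for UMIs that lie in few cells. Gene positions are those of RefSeq on GRCm38.p6. Scripts used SciPy 1.17.1, matplotlib 3.10.9, pandas 2.3.3 and NumPy 2.4.6 under Python 3.11.15.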

Additional observations from a re-analysis of the deposited data

Results flagged for a closer look

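Clu, which encodes the secreted chaperone clusterin, differed in direction between the fibroblast classes between DJ-1 KO OVA and WT OVA. Its level in alveolar fibroblasts was 34.5 CPM in WT PBS (25.1 to 46.3), 39.5 in WT OVA (28.6 to 53.2) and 133 in DJ-1 KO OVA (104 to 168), a ratio of 3.36 (2.27 to 5.04), while in adventitial fibroblasts the level was 80 CPM in WT PBS (62.6 to 101), 75.6 in WT OVA (56.6 to 98.8) and 35.2 in DJ-1 KO OVA (21.5 to 54.4), a ratio of 0.466 (0.264 to 0.793). The difference was not tested. The 5 highest knockout cells held 72.9% of its alveolar UMIs, and its log2 ratio was 1.13 without the cells rich in smooth muscle genes, against 1.75.

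Outside the cells used, 11 of the smaller WT PBS cells that were left out for sharing a barcode with DJ-1 KO OVA also met the rule for alveolar fibroblasts. They held a median of 595 UMIs, a median of 5.01% of those of their partner cells. Of the partners in DJ-1 KO OVA, 9 were collagen-expressing cells, and 6 of those 9 met the rule for alveolar fibroblasts.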

How the results depend on the processing

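No paired analysis was possible because each group is 1 library, and for the same reason no replicate could be left out. The counts of genes past 2-fold moved with the least number of UMIs and with thinning. In WT OVA over WT PBS, 83 higher and 70 lower genes became 224 and 257 with at least 20 UMIs, 10 and 9 with at least 200 UMIs and 25 and 15 after thinning to 1000 UMIs, and 152 were higher with cells weighted alike. In DJ-1 KO OVA over WT OVA, 90 higher and 82 lower genes became 316 and 307, 25 and 7, and 36 and 40 under the same limits, 193 and 163 with cells weighted alike, and 124 were lower with scaling by the trimmed mean of M values. For alveolar against adventitial fibroblasts, 92 and 64 became 145 and 123 with at least 20 UMIs and 23 and 10 after thinning. With only those members of the full rule that also held Npnt, a choice made after seeing the data, the shares moved to 3.1% in WT PBS and 2.71% in WT OVA. The other 69 values of shares and counts stayed within their limits. Of the log2 ratios of named genes under all alternatives, 2740 stayed within their counting interval, 216 moved beyond it and 9 changed sign, and of list medians 462 stayed and 16 moved. Those that changed sign after thinning were Acsl4 (-1.13), Prkg2 (0.035) and Uaca (1.04) in WT OVA over WT PBS and Cyp51 (-0.12) in DJ-1 KO OVA over WT OVA. The remaining sign changes were in the knockout comparison, in alternatives chosen after seeing the data. They were Il33 in the members that held Npnt (-0.42) and Tagln (-0.031) and Des (-0.85) without cells rich in smooth muscle genes. Myh11 (-0.67) and Des (-0.35) also changed sign without the highest cell of each library. Of the 60 ranked places of genes 0 fell below 2 times the B cell level with B cells of any collagen count, also chosen after seeing the data. Beyond fewer genes, cells or UMIs, the cause was not tested.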
